A study of Mus musculus with 4 samples.

Results

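The genes described here encode 6 chemokine receptors and 2 proteins of sphingosine 1-phosphate (S1P) traffic, which together set where blood cells stay and when they leave. They are Cxcr4, Ccr2, Cx3cr1, Ccr9, Cxcr2, Ccr1, S1pr1 and Spns2. They were taken by symbol from the gene lists of the deposited matrices, which held 27998 genes, and all 8 were found. Their transcripts were counted in 3567 cells of 4 single-cell libraries sorted from mice. The labels call the sorted cells sinusoidal cells or H vessel cells.

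The libraries fall into 4 groups of 1 library each. Lineage-negative cells that stained for CD31, endomucin and VE-cadherin were divided by Sca-1. The Sca-1-negative gate is called sinusoidal, after the wide vessels of bone marrow, and the Sca-1-positive gate is called type H, after vessels near the growing ends of bones. In each gate 1 library is labelled knockout, with the genotype CDH5-CreER ID1-/- ID3-/-, and 1 is the control, CDH5-CreER ID1+/+ ID3+/-, which the titles call WT. All 4 groups therefore carry the CreER, and the controls lack 1 copy of Id3. CDH5 is the gene of VE-cadherin, so the recombinase is directed to vascular endothelium. Tamoxifen was injected on 5 consecutive days to delete Id1. No source used here gives the age of the mice, how many were pooled, or which stretch of each gene is lost.

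The labels and the cells were checked before the members were read. The library labelled knockout had 553 cells and the control 351 cells in the sinusoidal gate, and the type H gate had 1857 and 806 cells in the same order. The total per library ranged from 3234772 to 11065352 UMIs (unique molecular identifiers, 1 per captured transcript), and the median per cell ranged from 5597 to 15428 UMIs, with the deepest cells in the sinusoidal labelled knockout. Sca-1 transcripts (Ly6a) followed the gates, in 76.0% and 84.9% of type H cells against 17.2% and 14.2% of sinusoidal cells, labelled knockout before control. Transcripts of the endothelial genes Cdh5 and Kdr were nearly absent. Cdh5 gave 45 UMIs in 28 of 3567 cells and Kdr 35 UMIs in 33 cells, while Ptprc, the CD45 gene of blood cells, was seen in 47.2% of cells. Id3 was higher in both libraries labelled knockout, at 84.8 CPM against 54.7 CPM in the sinusoidal gate and 84.9 CPM against 33.0 CPM in the type H gate, where CPM is a gene's UMIs per 1000000 UMIs of the cells summed. Id1 was at 26.3 and 26.1 CPM in the sinusoidal labelled knockout and control, and at 2.99 and 4.08 CPM in the type H ones. An Id3 null allele may still give tags, so the genotype could not be settled from the counts, and the words labelled knockout and control follow the labels throughout. Xist and Y-linked transcripts were found in different cells of every library, so the sexes were pooled, and 4 barcodes occurred in more than 1 library. Control cells with Xist had less Id3 than control cells with Y-linked UMIs in each class compared below, and the reason was not tested.

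Since each group is 1 library, no difference below has a replicate check and none was tested. Values carry exact 95% intervals in parentheses, which cover counting error only. The level of a class cannot separate fewer transcripts per cell from fewer expressing cells, so shares of cells are given as well, after every cell had been thinned to 2000 UMIs.

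Chemokine receptors are G protein-coupled receptors of the Gi class that guide cells along gradients of secreted chemokines. CXCR4 binds CXCL12, made by stromal and endothelial cells of the marrow, and holds stem cells and neutrophil precursors there. CXCR2 binds ELR-type CXC chemokines and draws mature neutrophils out. CCR2, the receptor of CCL2 and CCL7, is needed for classical monocytes to leave the marrow, and CX3CR1 binds CX3CL1 and marks nonclassical monocytes. CCR1 binds CCL3, CCL5 and related chemokines, and CCR9 binds CCL25 and guides lymphoid and plasmacytoid dendritic cells to thymus and gut. S1P is high in blood and low in tissue. S1PR1 lets cells sense that difference and exit, and SPNS2 exports S1P from the cells that make it, best known in endothelium.

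By the GENCODE M21 annotation of GRCm38, Ccr9 (chr9:123678439-123784330, plus strand), Ccr1 (chr9:123962124-123968692, minus) and Ccr2 (chr9:124101950-124113557, plus) lie close together on chromosome 9, with Cx3cr1 (chr9:119901616-120069879, minus) on the same chromosome. Cxcr4 (chr1:128588199-128592293, minus) and Cxcr2 (chr1:74153989-74161246, plus) lie on chromosome 1, S1pr1 (chr3:115710433-115715072, minus) on chromosome 3 and Spns2 (chr11:72451638-72489904, minus) on chromosome 11. The span of Cx3cr1 overlaps 3 other genes of its strand (Gorasp1, Csrnp1 and Xirp1) and that of Ccr9 overlaps 2 (Gm17200 and Gm17020). How the authors' counting split such reads is not stated, so the values of Cx3cr1 and Ccr9 carry that uncertainty.

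Id proteins act by binding E proteins and keeping them from E-boxes, DNA words of the form CANNTG, so the upstream sequences of 3 members the results turn on are shown. In the type H gate, Cxcr4 and Spns2 were both higher in labelled-knockout progenitor-like cells, and Ccr9 differed between the labels in opposite directions in a pair of cell types. Each line gives the 250 bases before the RefSeq start in GRCm38.p6, 5′ to 3′ on the gene's strand, with every CANNTG in capitals.
Cxcr4 (chr1:128592300-128592549, minus strand): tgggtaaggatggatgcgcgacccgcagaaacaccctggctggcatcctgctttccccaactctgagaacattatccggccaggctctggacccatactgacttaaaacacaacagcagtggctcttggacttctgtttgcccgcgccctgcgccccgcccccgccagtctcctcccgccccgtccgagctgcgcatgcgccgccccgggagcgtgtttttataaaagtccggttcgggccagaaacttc
Spns2 (chr11:72475028-72475277, minus strand): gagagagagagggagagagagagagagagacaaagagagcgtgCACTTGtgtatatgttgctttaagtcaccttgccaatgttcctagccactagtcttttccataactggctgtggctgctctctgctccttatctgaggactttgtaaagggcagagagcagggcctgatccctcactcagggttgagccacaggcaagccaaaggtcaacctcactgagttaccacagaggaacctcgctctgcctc
Ccr9 (chr9:123766961-123767210, plus strand): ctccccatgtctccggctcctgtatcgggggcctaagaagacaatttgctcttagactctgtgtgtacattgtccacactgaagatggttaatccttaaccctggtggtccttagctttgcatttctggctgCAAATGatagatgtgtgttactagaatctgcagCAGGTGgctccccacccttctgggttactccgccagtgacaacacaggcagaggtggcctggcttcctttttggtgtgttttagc
The Cxcr4 window held 0 such words. That of Spns2 held 1, CACTTG, which begins 207 bases before the start, and that of Ccr9 held 2, CAAATG at 118 and CAGGTG at 85 bases before it. Of the other members with an entry, Ccr2 held 1, Cx3cr1 and Cxcr2 held 2 each and Ccr1 held 3. CANNTG reads the same on both strands and was present in 66.2% of the 32851 RefSeq windows of 250 bases, and CAGGTG or its reverse complement CACCTG in 17.2%. These matches are letters in a window and show no binding. The RefSeq starts of Spns2 and Ccr9 lie inside the longer GENCODE spans, so these windows may not hold the starts used in these cells.

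Cells were grouped into 20 clusters without the members and their pathway genes, so that no member helped to define a cluster, and clusters were named from marker lists. No member was a marker. Some pathway genes were, among them Elane, Prtn3 and Ctsg for granulocyte precursors, Esam for progenitors and Ccl9 for monocytes, so these took part in the naming. Progenitor-like cells, rich in stem and early progenitor genes, made up 78.5% of the labelled knockout and 73.8% of the control in the type H gate. Granulocyte precursor-like cells made up 37.6% and 21.7%, and monocyte-like cells 21.3% and 48.1%, of the sinusoidal labelled knockout and control. Clusters 7 and 9 stayed unnamed and made up 31.6% and 8.83% of the sinusoidal labelled knockout and control, and 6.19% and 5.33% in the type H gate. The other cells were plasma cell-like, plasmacytoid dendritic cell-like, T and NK-like, B lymphoid-like, basophil and mast cell-like or erythroid-like. No cluster was named endothelial. Some of the 15 endothelial markers were nonetheless raised in progenitor-like clusters, 3 in cluster 0 and 4 each in clusters 1, 2 and 3. Cldn5, which is on that marker list, led cluster 4. Classes with at least 20 cells in a library are described.

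**Figure D1:**
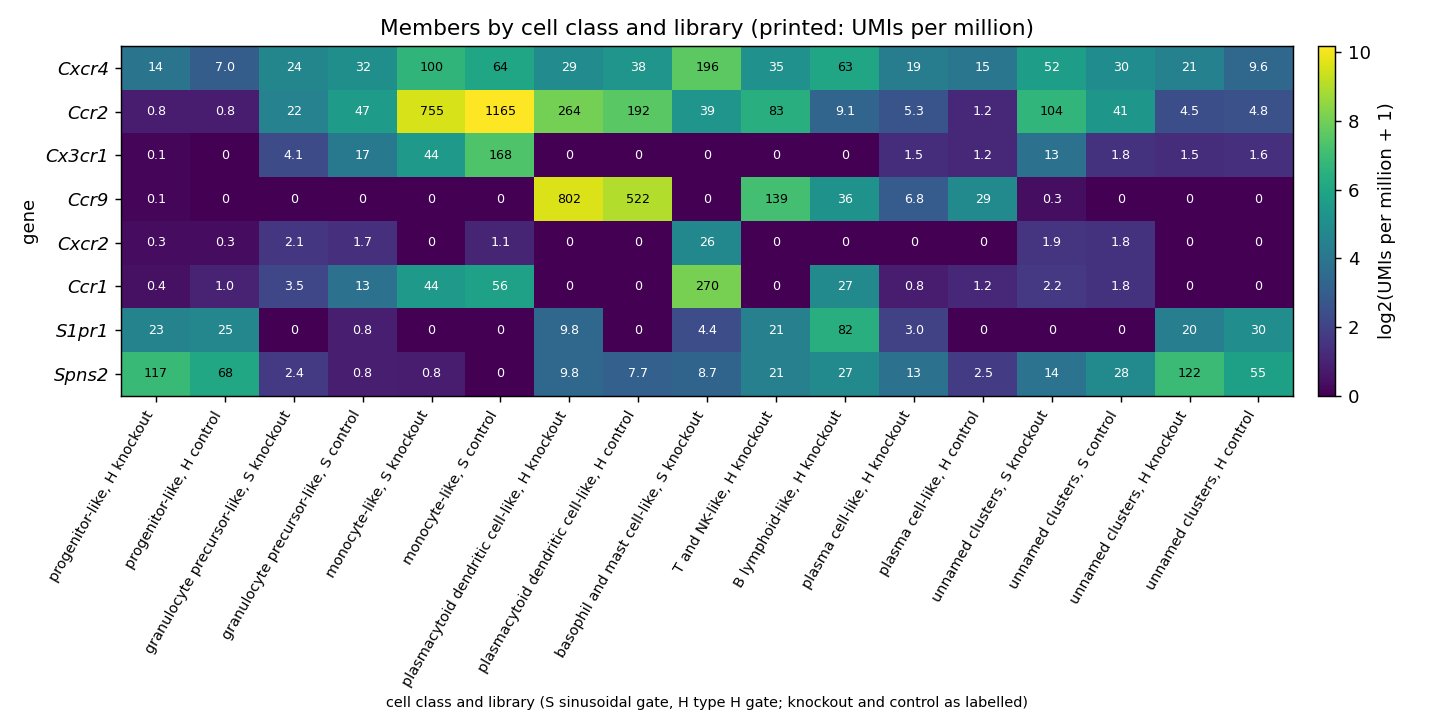
Level of the 8 members (rows) in each cell class and library with at least 20 cells (columns), with colour on a log2(CPM + 1) scale and the CPM printed in each field. Spns2 stands in the progenitor-like and unnamed columns of the type H gate. S1pr1 stands in the progenitor-like, unnamed, T and NK-like and B lymphoid-like columns of that gate. Ccr2 and Cx3cr1 stand in the monocyte-like columns of the sinusoidal gate and Ccr9 in the plasmacytoid dendritic cell-like columns.

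Spns2, the S1P exporter, was the member of the progenitor-like cells. Over all cells it stood at 100.4 CPM (94.6 to 106.5) in the type H labelled knockout and 53.7 CPM (47.9 to 60.1) in the type H control, against 6.996 CPM (5.31 to 9.04) in the sinusoidal labelled knockout and 6.29 CPM (3.84 to 9.71) in the sinusoidal control. Within the type H gate it was 117 CPM in labelled-knockout progenitor-like cells and 68.2 CPM in control ones, and 122 and 54.5 CPM in the unnamed clusters, nearly all cluster 7, a cycling cluster led by Pf4 and Ppbp with progenitor markers. Plasma cell-like cells of the same libraries had 12.8 CPM (7.45 to 20.5) and 2.50 CPM (0.303 to 9.03). After thinning, Spns2 was seen in 1.20% of labelled-knockout and 0% of 107 control plasma cell-like cells, and in 20.7% and 11.1% of progenitor-like cells, at median depths of 7484 and 7094 UMIs in the plasma cell-like and 5385 and 6312 UMIs in the progenitor-like cells. The ratio in the plasma cell-like cells, 5.12 (1.22 to 45.7) on 17 and 2 UMIs, ran the same way as in the progenitor-like cells, and the part of free RNA in the progenitor values was not tested. In monocyte-like cells it gave 1 UMI in 118 labelled-knockout cells and 0 in 169 control cells. Over the 20 clusters the genes with the highest Pearson correlation of log2(CPM + 10) were Krt18 (0.986), Hlf (0.983), Gprc5b (0.978), F2rl3 (0.975) and Adgrg1 (0.974), as a description over points that share libraries and depth. Hlf encodes a transcription factor of haematopoietic stem cells.

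S1pr1, the receptor through which cells read S1P, followed the same gate. It stood at 20.05 CPM (17.5 to 22.9) in the type H labelled knockout and 20.8 CPM (17.2 to 24.9) in the type H control, with 1 UMI in the sinusoidal labelled knockout and 7 UMIs in the sinusoidal control. The B lymphoid-like cells of the type H labelled knockout had the highest value, 81.6 CPM (37.3 to 155) from 9 UMIs in 9 of 30 cells. Its interval did not overlap that of the progenitor-like cells, at 22.7 CPM (19.4 to 26.2) in the labelled knockout and 25.0 CPM (20.2 to 30.5) in the control. Monocyte-like cells had 0 UMIs in both sinusoidal libraries, which allows up to 2.26 CPM in the labelled knockout and 3.21 CPM in the control at 3 counts. The genes most like it over the clusters were Ankrd33b (0.917), Pkn2 (0.865), Akap8l (0.863), Pus3 (0.862) and Gm14302 (0.860).

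Cxcr4, the retention receptor, was the most widely spread member. It stood at 51.7 CPM (47.0 to 56.9) in the sinusoidal labelled knockout and 44.0 CPM (37.0 to 52.0) in the sinusoidal control, against 17.1 CPM (14.7 to 19.7) and 11 CPM (8.43 to 14.1) in the type H labelled knockout and control. No class held a majority of its 819 UMIs: unnamed clusters gave 26.1%, monocyte-like cells 24.5%, progenitor-like cells 17.1% and granulocyte precursor-like cells 15.3%. Basophil and mast cell-like cells of the sinusoidal labelled knockout had the highest level, 196 CPM (143 to 262), with 6 UMIs in the richest cell. Monocyte-like cells followed, at 100.1 CPM (83.8 to 119) in the labelled knockout and 64.2 CPM (49.0 to 82.6) in the control. The lowest named classes were the progenitor-like and plasma cell-like ones, whose intervals overlap in each library. B lymphoid-like, plasmacytoid dendritic cell-like and T and NK-like cells lay between, at 63.5 CPM (25.5 to 131), 29.4 CPM (6.05 to 85.8) and 34.8 CPM (11.3 to 81.1) in the type H labelled knockout, which overlap. Plasma cell-like cells had 18.8 CPM (12.2 to 27.8) in the labelled knockout and 15 CPM (7.75 to 26.2) in the control. The genes most like it were Fam46a (0.866), Tmsb4x (0.833), Cd48 (0.826), Rnf115 (0.820) and Hn1 (0.820).

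Ccr2 and Cx3cr1 belonged to the monocyte-like cells. That class held 8.55% of all cells but 76.7% of the 2836 Ccr2 UMIs and 72.6% of the 317 Cx3cr1 UMIs. Over all cells Ccr2 stood at 172 CPM (163 to 181) in the sinusoidal labelled knockout and 389 CPM (367 to 411) in the sinusoidal control, against 11.6 CPM (9.69 to 13.8) and 8.51 CPM (6.28 to 11.3) in the type H labelled knockout and control. Cx3cr1 stood at 14.0 CPM (11.6 to 16.8) and 56.6 CPM (48.6 to 65.5) in the sinusoidal labelled knockout and control, and at 1.27 and 1.24 CPM in the type H libraries. Among named classes of at least 20 cells, plasmacytoid dendritic cell-like cells were next for Ccr2, with 264 CPM (174 to 384) in the type H labelled knockout and 192 CPM (124 to 283) in the control, then T and NK-like cells with 83.4 CPM (43.1 to 146) in the labelled knockout. The unnamed clusters of the sinusoidal labelled knockout had 104 CPM (93.1 to 116), which that interval holds, and progenitor-like cells had 0.764 and 0.772 CPM. The genes most like Cx3cr1 were Hpgd (0.984), Adgre1 (0.965), Lrp1 (0.960), Sirpb1c (0.956) and Clec4a3 (0.956), of which Adgre1 encodes the macrophage antigen F4/80. Those of Ccr2 were Fam105a (0.925), Gm9844 (0.898), Anxa2 (0.884), Tnfaip8l2 (0.864) and Cndp2 (0.856).

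Ccr9 was mainly a transcript of plasmacytoid dendritic cell-like cells. Over all cells it stood at 2.05 CPM (1.20 to 3.28) and 13.2 CPM (9.52 to 17.9) in the sinusoidal labelled knockout and control, and at 10.5 CPM (8.70 to 12.6) and 16.1 CPM (12.99 to 19.8) in the type H ones. Plasmacytoid dendritic cell-like cells of the type H gate had 802 CPM (638 to 996) in the labelled knockout and 522 CPM (405 to 661) in the control, with the transcript in 22 of 25 cells of each. The T and NK-like cells of the labelled knockout came next, at 139 CPM (84.9 to 215) from 20 UMIs in 10 of 42 cells. Plasma cell-like cells had 6.77 CPM (3.10 to 12.9) in the labelled knockout, with 9 UMIs in 9 of 167 cells, and 28.7 CPM (18.2 to 43.1) in the control, with 23 UMIs in 15 of 109 cells. The ratios were 1.54 (1.10 to 2.15) in the plasmacytoid dendritic cell-like and 0.236 (0.0960 to 0.529) in the plasma cell-like cells. After thinning, 1 of 167 labelled-knockout and 4 of 107 control plasma cell-like cells held the transcript. The direction between the labels was thus opposite in these cell types, a difference that was not tested. The plasma cell-like class was mixed differently in the libraries, since a finer clustering split it into 71 labelled-knockout and 86 control cells led by Jchain, with Vpreb3 and Cd79a among the leading genes, and 96 and 23 cells led by Chst1 and Mt2, and the part of that mix in the ratio was not tested. Ccr9 gave 0 UMIs in the monocyte-like and granulocyte precursor-like cells of both sinusoidal libraries, and the genes most like it were Amica1 (0.884), Siglech (0.853), N4bp3 (0.853), Serinc5 (0.849) and D13Ertd608e (0.831). Siglech marks plasmacytoid dendritic cells.

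Ccr1 stood at 16.8 CPM (14.1 to 19.8) in the sinusoidal labelled knockout and 26.7 CPM (21.4 to 33.1) in the sinusoidal control, with 14 UMIs in each type H library. It was highest in basophil and mast cell-like cells, with 270.1 CPM (207 to 346) in 21 of 27 cells of the sinusoidal labelled knockout. Monocyte-like cells followed with 43.6 CPM (33.1 to 56.4) in the labelled knockout and 55.6 CPM (41.6 to 73.0) in the control, and the order between those libraries is within counting error. The like genes were Osm (0.891), Papss2 (0.813), Id1 (0.781), Fcer1a (0.775) and Emilin2 (0.762), of which Fcer1a encodes a chain of the IgE receptor. Cxcr2 was nearly silent in these cells, with 31 UMIs in 28 of 3567 cells. Of these, 7 UMIs lay in labelled-knockout and 2 UMIs in control granulocyte precursor-like cells, and 6 UMIs lay in the basophil and mast cell-like cells of the sinusoidal labelled knockout. Too few were counted to place a difference.

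The first comparison set the labels side by side in type H progenitor-like cells, where Id3 was at 89.7 CPM in the labelled knockout and 31.7 CPM in the control. Id1 gave 20 and 10 UMIs there, a ratio of 0.989 (0.442 to 2.37). Spns2 and Cxcr4 were higher in the labelled knockout and S1pr1 was not distinguishable from the control. Spns2 gave 921 UMIs in 1457 labelled-knockout cells and 265 UMIs in 595 control cells, a ratio of 1.72 (1.497 to 1.98). Cxcr4 gave 112 UMIs, or 14.2 CPM (11.7 to 17.1), in the labelled knockout and 27 UMIs, or 6.95 CPM (4.58 to 10.1), in the control, which is a ratio of 2.05 (1.34 to 3.25). S1pr1 gave 178 and 97 UMIs, a ratio of 0.907 (0.705 to 1.17). After thinning, 2.38% of labelled-knockout and 1.02% of control cells held a Cxcr4 transcript, and 4.69% and 4.43% held S1pr1, which runs against its CPM, so no order of S1pr1 is read. Without thinning these shares were 7.28% and 4.54% for Cxcr4, 10.5% and 14.6% for S1pr1, and 44.7% and 35.5% for Spns2.

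A gene was counted as higher or lower when the ratio was at least 1.5-fold on sums of at least 20 UMIs. By that rule 5.07% of 11435 genes were higher and 3.13% lower in the labelled knockout. Among the 3 members with enough UMIs, 2 were higher and 0 were lower. The other 5 members had between 1 and 9 UMIs in both libraries together, so nothing can be read from them. Spns2 and Cxcr4 were seen together in 3 labelled-knockout and 3 control cells after thinning. Without thinning, 3.09% of labelled-knockout and 1.51% of control cells held both, so some cells held both transcripts. Whether they met more or less often than their separate shares give was not tested.

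**Figure D2:**
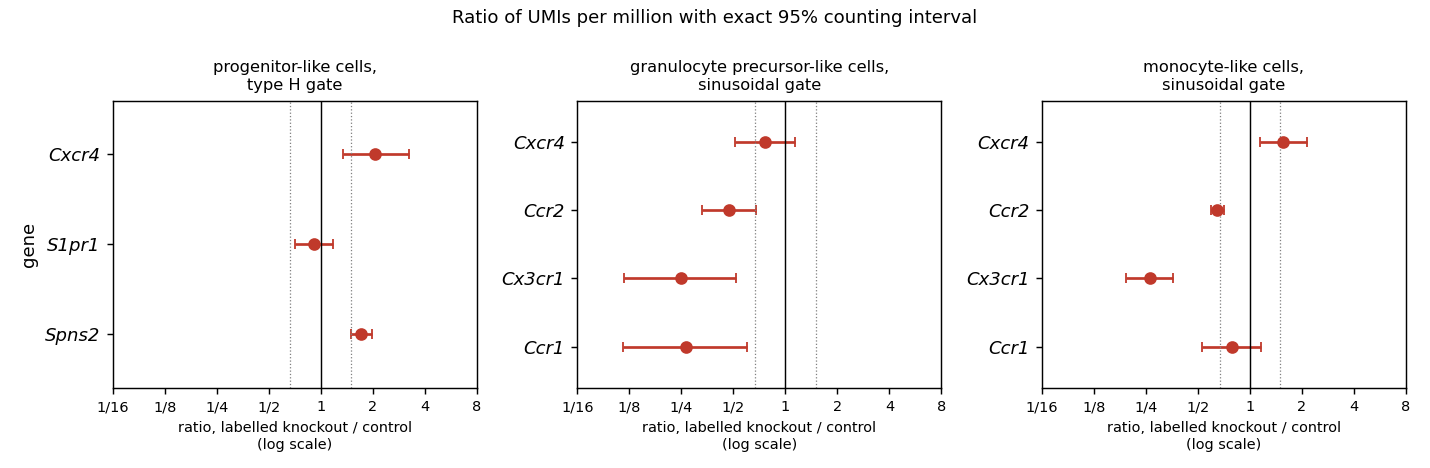
Ratio of the labelled knockout over the control (log scale) for each member with at least 20 UMIs in 3 class comparisons, as points with exact 95% counting intervals. The solid line marks equal levels and the dotted lines mark 1.5-fold. Cxcr4 and Spns2 lie to the right in progenitor-like cells, while Ccr2 and Cx3cr1 lie to the left in both sinusoidal classes.

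The direction of Spns2 and Cxcr4 was shared by the parts of the class. Spns2 was higher in the labelled knockout in 6 of 6 progenitor-like clusters, with ratios from 1.06 to 2.28 and an interval above 1 in 4 of them. The widest gap was in cluster 3, at 130.5 CPM (112 to 151) and 57.3 CPM (39.7 to 80.04) in labelled knockout and control, and the narrowest were in cluster 4, led by Cldn5, and in the small interferon-response cluster 17. Cxcr4 was also higher in 6 of 6 clusters, but with an interval above 1 only in cluster 0, at 15.4 CPM (10.5 to 21.9) against 7.54 CPM (3.77 to 13.5) for the control. The ratio there was 2.05 (1.002 to 4.52), an interval that barely leaves out 1. In cluster 17 the higher Cxcr4 value rests on 2 labelled-knockout and 0 control UMIs. Unnamed cluster 7 had 123 CPM (105 to 144) of Spns2 in the labelled knockout and 54.5 CPM (37.8 to 76.2) in the control. S1pr1 was higher in the labelled knockout in 2 of 6 clusters, and no interval left out 1.

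**Figure D3:**
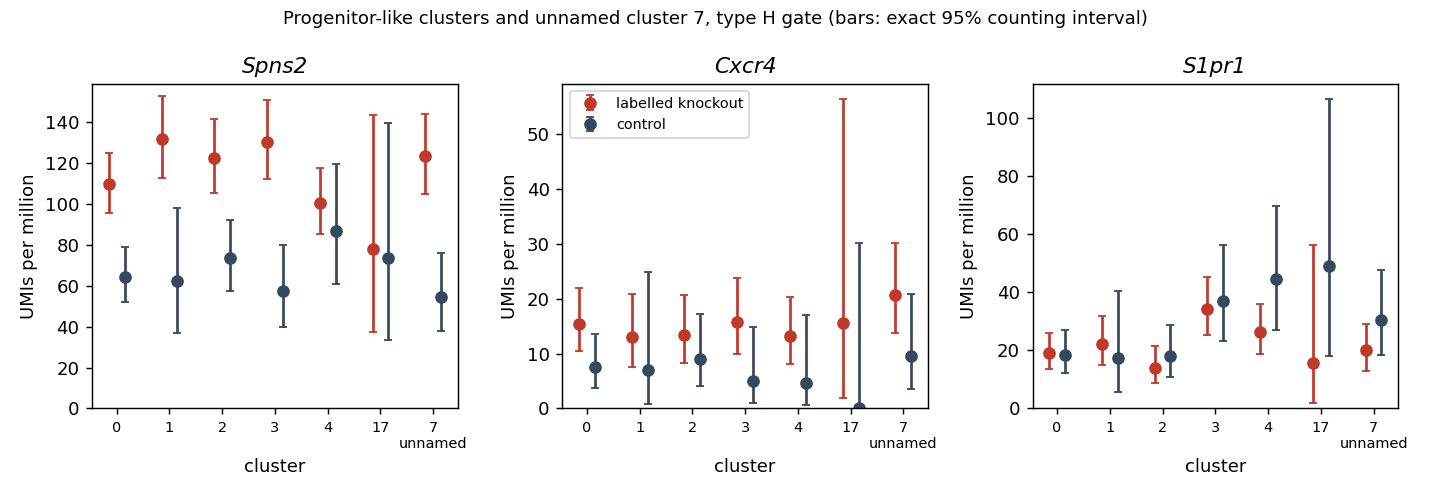
CPM of Spns2, Cxcr4 and S1pr1 in the 6 progenitor-like clusters and unnamed cluster 7 of the type H gate, labelled knockout left of control, with exact 95% counting intervals. For Spns2 the labelled knockout lies above the control in all of these clusters, by least in clusters 4 and 17, and for S1pr1 the intervals overlap in each.

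The sexes were compared because their mix differed. Among progenitor-like cells 92 labelled-knockout and 118 control cells had Xist without Y-linked UMIs, and 781 and 319 had the reverse. Spns2 stood at 142 CPM (111 to 178) in labelled-knockout and 64.3 CPM (47.9 to 84.6) in control cells with Xist, and at 112 CPM (102 to 122) and 67.9 CPM (57.3 to 79.8) in those with Y-linked UMIs. Cxcr4 stood at 17.5 CPM (7.997 to 33.2) and 5.05 CPM (1.38 to 12.9) with Xist, from 9 and 4 UMIs, and at 14.8 CPM (11.5 to 18.8) and 5.12 CPM (2.55 to 9.15) with Y-linked UMIs. Spns2 was thus higher in the labelled knockout on each side of that split. Cxcr4 was higher in the cells with Y-linked UMIs, while its ratio in those with Xist, 3.47 (0.967 to 15.4), rests on fewer than 20 UMIs and an interval that holds 1. Id3 was 77.7 CPM in labelled-knockout and 2.52 CPM in control cells with Xist, the latter from 2 UMIs, and 93.0 and 34.4 CPM in those with Y-linked UMIs. In sinusoidal granulocyte precursor-like cells it was 29.1 and 4.06 CPM with Xist, and 38.2 and 22.1 CPM with Y-linked UMIs. In sinusoidal monocyte-like cells it was 217 and 8.42 CPM, and 265 and 119 CPM, in the same order. Both of these control values with Xist rest on 1 UMI.

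**Figure D4:**
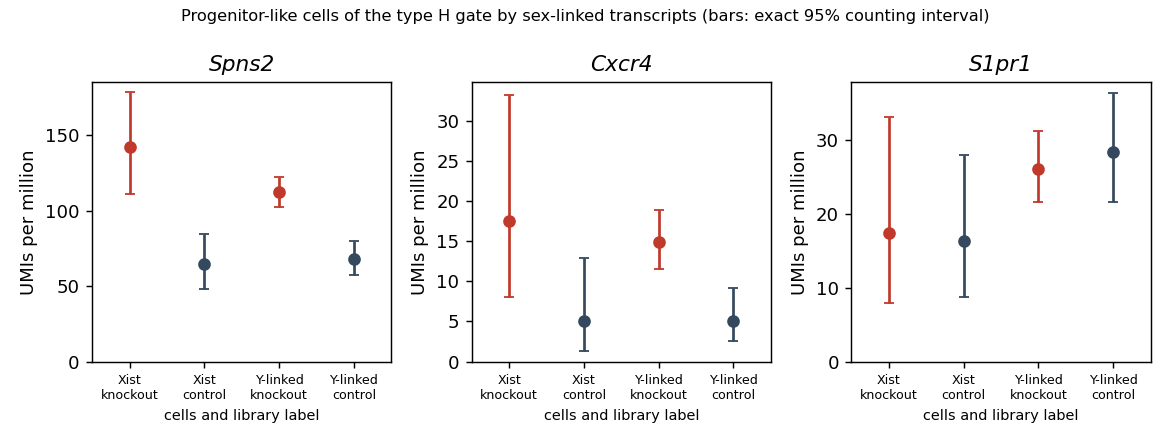
CPM of Spns2, Cxcr4 and S1pr1 in type H progenitor-like cells, split into cells with Xist only and cells with Y-linked transcripts only, labelled knockout left of control, with exact 95% counting intervals. Spns2 lies higher in the labelled knockout in both kinds of cell and Cxcr4 in the cells with Y-linked transcripts, with overlapping Cxcr4 intervals in the cells with Xist.

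Klf2, a transcription factor known in T cells to switch on S1pr1, was at 480 CPM (465 to 496) in the labelled knockout and 238 CPM (223 to 253) in the control, which is a ratio of 2.02 (1.88 to 2.17), while Cd69, whose product removes S1PR1 from the surface, was at 23.3 and 18.8 CPM (ratio 1.24, 0.940 to 1.65). Immediate early genes ran the same way as Klf2: 12 immediate early and heat shock genes summed to 5883 CPM and 3992 CPM. Counted without a minimum of UMIs, 5 of 12 were at least 1.5-fold higher, Jund at a ratio of 2.12 (2.02 to 2.24) among them. By that count 1 was lower, Hspa1a, which rests on 2 and 2 UMIs. The part of these genes in the Klf2, Spns2 and Cxcr4 values was not tested. The genes most like Spns2 across clusters did not share its difference, with Hlf at 357 and 347 CPM (ratio 1.03, 0.964 to 1.10), Krt18 at 288 and 256 CPM (1.12, 1.04 to 1.21) and F2rl3 at 27.4 and 37.8 CPM (0.723, 0.584 to 0.898).

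The pathway lists are set beside the 5.07% of all genes that were higher and the 3.13% that were lower. In them 23 of 23 genes of receptor signalling and turnover could be read, of which 1 (Klf2) was higher and 0 were lower. For adhesion and retention 0 of 12 genes passed in either direction, with a median log2 ratio of -0.01 against -0.04 over all genes. Of 10 readable ligands 3 were higher and 2 lower. Cxcl2, a CXCR2 ligand, had 67 and 16 UMIs (ratio 2.07, 1.19 to 3.83) and Ccl5, a CCR1 ligand, 54 and 14 (1.91, 1.04 to 3.72), whereas Ccl2 and Ppbp had 13 and 16 UMIs each (0.402, 0.178 to 0.891). Cxcl12 itself gave 2 UMIs in labelled-knockout and 0 in control progenitor-like cells. Of 4 proteases that cut such ligands 2 were higher, among them Elane, the gene of neutrophil elastase, with 33 and 5 UMIs (3.26, 1.27 to 10.7). Of 7 genes of S1P receptors and metabolism 0 were higher and 1 was lower, with an interval that held 1, and of 2 readable chemokine receptors outside the members 0 passed.

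The second comparison took the sinusoidal granulocyte precursor-like cells, with 208 labelled-knockout and 76 control cells and with Id3 at 39.2 and 19.9 CPM. Id1 gave 50 and 20 UMIs there, a ratio of 0.89 (0.52 to 1.58). These cells held an early cluster led by Elane and Mpo and a later one led by Ngp and Camp. Ccr2, Cx3cr1 and Ccr1 were lower in the labelled knockout and Cxcr4 was within counting error. Ccr2 gave 75 UMIs, or 22.1 CPM (17.4 to 27.7), in the labelled knockout and 57 UMIs, or 47.2 CPM (35.8 to 61.2), in the control, which is a ratio of 0.469 (0.328 to 0.673). Those UMIs sat in few cells, 26 of 208 and 18 of 76, with up to 13 in 1 cell of either library. With called doublets left out, 56 labelled-knockout and 29 control Ccr2 UMIs remained, a ratio of 0.662 (0.415 to 1.08) whose interval holds 1. Cx3cr1 gave 14 UMIs, or 4.13 CPM, and 20 UMIs, or 16.6 CPM, a ratio of 0.249 (0.117 to 0.519). Ccr1 gave 12 UMIs, or 3.54 CPM, and 16 UMIs, or 13.3 CPM, a ratio of 0.267 (0.115 to 0.602). Cxcr4 gave 83 UMIs, or 24.5 CPM, and 39 UMIs, or 32.3 CPM, a ratio of 0.758 (0.512 to 1.14).

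By the same rule 8.36% of 8362 genes were higher and 10.3% lower in the labelled knockout in these cells. Of 4 readable members 0 were higher and 3 lower. After thinning, Ccr2 was seen in 3.85% and 5.26% of labelled-knockout and control cells, Cx3cr1 in 0.962% and 6.58%, and Ccr1 in 0.481% and 5.26%, against 12.5% and 23.7%, 5.29% and 19.7%, and 4.33% and 14.5% without thinning. The 11 labelled-knockout and 15 control erythroid-like cells, which should lack these receptors, were too few to bound free RNA. In the labelled-knockout ones 0 UMIs allow up to 29.3 CPM at 3 counts, above the labelled-knockout values of all 3 genes. The control ones held 3 Ccr2 UMIs in 1 cell, or 17.2 CPM (3.55 to 50.3), an interval that holds the control Ccr2 value. Their 0 UMIs of Cx3cr1 and of Ccr1 allow up to 17.2 CPM, above the control values of both genes. The Ccr1 difference lay in the later cluster, with 2 UMIs in 53 labelled-knockout and 12 in 26 control cells, and in the early cluster the values were 3.79 and 4.36 CPM. The later cells were not alike in the libraries: a finer clustering put 46 labelled-knockout and 10 control cells in a cluster led by Fcnb and Elane, and 8 and 18 cells in one led by Ltf and Lcn2, genes of later granules. The part of that mix in the Ccr1 value and in the genes around the receptors was not tested. The Ccr2 difference lay in the early cluster, at 27.7 CPM (21.7 to 34.8) and 58.8 CPM (44.2 to 76.8).

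The Ccr2 direction was not the same under each grouping of the granulocyte precursor-like cells. Unnamed cluster 9 had 6 of 17 granulocyte precursor and 6 of 18 monocyte markers raised. The share raised was 0.88 for markers of early granulocyte precursors and 0.25 for those of classical monocytes. It was led by Prg2, Prg3 and Mpo, of which Prg2 and Prg3 are on the eosinophil marker list. This cluster held 147 labelled-knockout and 20 control cells. There Ccr2 was at 122 CPM (109 to 136) in the labelled knockout and 55.5 CPM (33.9 to 85.7) in the control, which is a ratio of 2.19 (1.40 to 3.64), opposite to the early cluster beside it. Cxcr4 in cluster 9 was at 51.1 CPM (42.9 to 60.4) and 36.1 CPM (19.2 to 61.7). Cx3cr1 in cluster 9 gave 38 labelled-knockout UMIs and 1 control UMI, or 14.1 and 2.78 CPM. Its ratio of 5.07 (0.856 to 205) also ran opposite to the early cluster, but its interval held 1. At a finer clustering, whose granulocyte precursor-like class held 355 labelled-knockout and 95 control cells, the log2 ratio of Ccr2 in the class was 0.42.

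Against the 8.36% of all genes higher and 10.3% lower in the granulocyte precursor-like cells, 4 of 12 adhesion genes were lower, among them the integrin genes Itgal (ratio 0.475, 0.280 to 0.813), Itgb2 (0.612, 0.477 to 0.788) and Itgam (0.650, 0.466 to 0.914), which encode chains of LFA-1 and Mac-1, and 0 were higher. Of the chemoattractant receptors outside the members 2 of 3 were lower. Fpr2, a formyl peptide receptor, had 6 labelled-knockout and 42 control UMIs (0.0509, 0.0177 to 0.120), and C5ar1, the C5a receptor, 36 and 32 (0.401, 0.242 to 0.666). Mmp9, a gelatinase of mature neutrophils, had 6 and 36 UMIs (0.0594, 0.0204 to 0.142) and Mmp8, a neutrophil collagenase, 21 and 19 (0.394, 0.201 to 0.774), while 0 of 6 proteases were higher. Among 8 ligands 4 were higher and 2 lower: Cxcl2 had a ratio of 3.92 (1.71 to 11.1) and Ccl2 of 3.38 (1.22 to 13.1), but Ccl3 of 0.506 (0.364 to 0.708) and Ccl5 of 0.119 (0.0386 to 0.312). Among 23 signalling genes 1 was higher, Cd69 at 1.96 (1.26 to 3.16), and 3 were lower, Arrb2, the beta-arrestin 2 gene, among them at 0.626 (0.493 to 0.797), shares near or below those of all genes. Klf2 was at 0.690 (0.525 to 0.914), short of 1.5-fold, and Cxcl12 gave 0 UMIs in both libraries. The 12 immediate early and heat shock genes summed to 795 CPM in the labelled knockout and 703 CPM in the control. Counted without a minimum of UMIs, 2 of them were at least 1.5-fold higher and 4 lower. Among the lower ones, Egr1 rests on 8 and 6 UMIs and Hspa1b on 1 and 1. The part of these genes in the values above was not tested. Of 7 S1P genes 2 were higher and 1 was lower, each with an interval that held 1.

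The third comparison took the sinusoidal monocyte-like cells, with 118 labelled-knockout and 169 control cells and with Id3 at 265 and 125 CPM. Id1 was at 77.5 CPM in the labelled knockout and 26.75 CPM in the control, a ratio of 2.90 (1.86 to 4.68). Cx3cr1 and Ccr2 were lower and Cxcr4 was higher in the labelled knockout, with Ccr1 within counting error, in the cells as filtered here. Ccr2 gave 1004 UMIs, or 755 CPM (709 to 804), in the labelled knockout and 1089 UMIs, or 1165 CPM (1097 to 1237), in the control, which is a ratio of 0.648 (0.594 to 0.707). Cx3cr1 gave 59 UMIs, or 44.4 CPM (33.8 to 57.3), and 157 UMIs, or 168 CPM (143 to 196), a ratio of 0.264 (0.193 to 0.359). Cxcr4 gave 133 and 60 UMIs, a ratio of 1.56 (1.14 to 2.15), and Ccr1 gave 58 and 52 UMIs, a ratio of 0.784 (0.530 to 1.16). Both ratios changed with the cells that entered the class. With no cell filter it held 229 labelled-knockout and 175 control cells, Cxcr4 was then at a ratio of 1.27 (0.963 to 1.69) and Ccr1 at 0.414 (0.283 to 0.607). A strict filter gave 1.345 (1.02 to 1.79) for Cxcr4 and 0.454 (0.310 to 0.666) for Ccr1, and members in the clustering gave 1.26 (0.954 to 1.68) and 0.414 (0.283 to 0.608). Under these settings Ccr1 was therefore among the lower members and Cxcr4 was short of 1.5-fold. By the same rule 17.8% of 7261 genes were higher and 18.3% lower in these cells, so many genes differed. Of 4 readable members 1 was higher and 2 were lower. After thinning, 10.2% of labelled-knockout and 13.6% of control cells held Cxcr4, which runs against its CPM, and no order of Cxcr4 is read from the class. Ccr2 was seen in 67.8% and 72.2% and Cx3cr1 in 16.9% and 34.3% of thinned cells, against 94.9% and 79.9%, and 39.0% and 52.7%, without thinning.

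The libraries filled this class from different clusters. The labelled knockout had 54 cells in cluster 8, led by Fn1, Lyz2 and Ms4a4c as classical monocytes are, and 59 in cluster 11, a cycling cluster led by Chil3 and F13a1. The control had 113 cells in cluster 8 and 42 in cluster 13, led by Ear2, Fcgr4 and Gngt2 as nonclassical monocytes are. Within cluster 8 the interval of the ratio held 1 for each of these 4 receptors. Ccr2 was at 1518 CPM (1387 to 1658) in the labelled knockout and 1491 CPM (1400 to 1586) in the control, which is a ratio of 1.02 (0.912 to 1.14), and Cxcr4 was at 27.7 CPM and 28.3 CPM, a ratio of 0.979 (0.390 to 2.27). Cx3cr1 there was at 117 CPM (82.8 to 161) and 159 CPM (131 to 193), a ratio of 0.734 (0.493 to 1.07), and Ccr1 at 92.4 CPM (62.3 to 132) and 62.5 CPM (45.1 to 84.5), a ratio of 1.48 (0.893 to 2.42).

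The receptors separated the monocyte clusters from each other. Cycling cluster 11 had 517 CPM (473 to 564) of Ccr2, 18.2 CPM (10.8 to 28.8) of Cx3cr1 and 121 CPM (101 to 145) of Cxcr4 in the labelled knockout. Nonclassical cluster 13 had 149 CPM (85.3 to 242) of Ccr2, 457 CPM (338 to 604) of Cx3cr1 and 205 CPM (129 to 311) of Cxcr4 in the control, from 16, 49 and 22 UMIs. Cxcr4 was thus lowest in the classical cluster and higher on both sides of it, and Ccr1 gave 0 UMIs in cluster 13. In thinned cells of cluster 8, 25.9% (14.96 to 39.7) of labelled-knockout and 32.7% (24.2 to 42.2) of control cells held both Ccr2 and Cx3cr1, near the product of the separate shares, 24.7% and 32.4%.

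**Figure D5:**
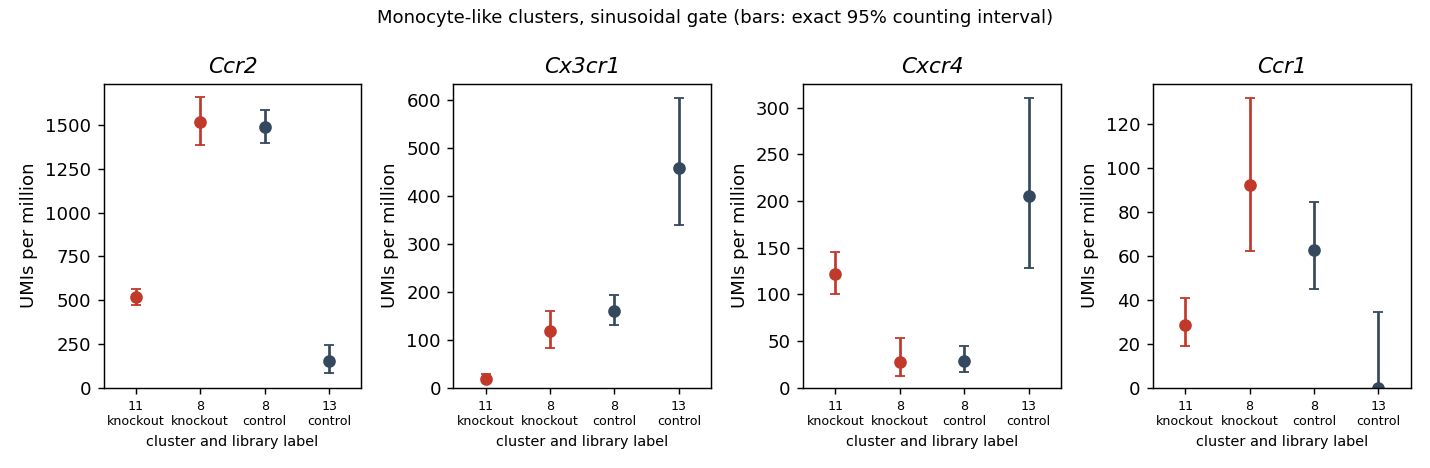
CPM of Ccr2, Cx3cr1, Cxcr4 and Ccr1 in the monocyte-like clusters that hold at least 20 cells of a sinusoidal library, labelled knockout left of control, with exact 95% counting intervals. In cluster 8, present in both libraries, the intervals overlap for each gene, while Cxcr4 is higher in clusters 11 and 13.

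The values of the genes around the receptors are sums over these different clusters, and the part of the cluster mix in them was not tested. Against the 17.8% of all genes higher and 18.3% lower in the monocyte-like cells, 4 of 10 adhesion genes were lower and 0 higher, among them Itgal (ratio 0.271, 0.191 to 0.380), Itgam (0.466, 0.332 to 0.651), Itgb2 (0.475, 0.393 to 0.573) and Itga4, a chain of VLA-4 (0.494, 0.360 to 0.676). The 3 readable chemoattractant receptors outside the members were all lower: Fpr2 at 0.278 (0.149 to 0.498), C5ar1 at 0.422 (0.222 to 0.782) and Ccrl2 at 0.457 (0.297 to 0.695). Of 23 signalling genes 1 was higher, Gnai3, a Gi subunit gene, at 2 (1.41 to 2.88), and 6 were lower, with Klf2 at 0.584 (0.519 to 0.657), Rgs1, which shortens Gi signals, at 0.385 (0.236 to 0.616) and Adrbk2, a receptor kinase gene, at 0.583 (0.359 to 0.942). Cd69 gave 12 and 10 UMIs. Of 6 S1P genes S1pr4 was higher, with 80 and 22 UMIs (2.56, 1.58 to 4.31), and S1pr5, known in nonclassical monocytes, was lower, with 4 and 18 UMIs (0.156, 0.0385 to 0.474). These S1P counts and the count of lower signalling genes are near the shares over all genes. Proteases of early granules were higher, Ctsg at 6.73 (5.62 to 8.11), Prtn3 at 5.86 (5.13 to 6.71) and Elane at 3.84 (3.46 to 4.28), and Mmp8 was lower at 0.594 (0.477 to 0.738), so that 3 of 5 were higher and 1 lower. Ctsg, Prtn3 and Elane are also granulocyte precursor markers, so they took part in naming the clusters of this class. Of 8 ligands 2 were higher and 4 lower: Mif, a ligand of CXCR4, was at 2.78 (2.25 to 3.47), Ccl6 at 0.425 (0.391 to 0.462) and Ccl3 at 0.446 (0.393 to 0.505), and Ccl7, a CCR2 ligand, gave 20 labelled-knockout and 0 control UMIs. Ccl2 was at 0.741 (0.588 to 0.936), short of 1.5-fold, and Cxcl12 gave 0 UMIs in both. The 12 immediate early and heat shock genes summed to 2938 CPM in labelled-knockout and 5838 CPM in control monocyte-like cells. Counted without a minimum of UMIs, 9 of 12 were at least 1.5-fold lower, of which Hspa1b rests on 1 and 2 UMIs. The part of these genes in the values above was not tested.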

How the data were processed

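The authors deposited UMI counts for each gene in each called barcode, as whole numbers and without normalization. Libraries were made with 10x Chromium and read for 26 and 57 cycles, per the labels' protocols. Cell Ranger, Seurat and mm10 are named in the submitters' processing notes; no source used here states a version. Empty droplets, and so free RNA, were not analysed here.

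Of 3641 barcodes, 3567 were kept, each with 200 or more genes and less than 10% of UMIs mitochondrial. Scrublet, run per library, marked between 3 and 6 cells, 0.162% in the type H labelled knockout, while 1.51% to 2.56% of each library's cells mixed Xist with Y-linked UMIs. Marked cells stayed in, and leaving them out is an alternative. The 4 libraries were clustered together without the 102 member and pathway genes in scanpy 1.11.5 under Python 3.11.15 (2000 variable genes, 30 components, 15 neighbours, Leiden resolution 1, leidenalg 0.10.2). A cluster took a class name when at least 3 and 0.5 of the class's markers were detected in 10% of its cells, at least 3 were 1.5-fold above the other clusters' mean (20 CPM added on each side), and no other class had as many raised or led among the 10 leading genes. This naming rule was set after the clusters were seen, as were the comparison of immediate early genes and of the genes most like Spns2 between labels. The members and lists were chosen with earlier results of these data known.

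UMIs were summed per class and library and divided by their total. Ratios run labelled knockout over control, and log2 ratios have 0.5 UMIs added to each sum. Intervals are exact 95% (Poisson for a sum, Clopper-Pearson for a share, conditional on the total for a ratio). With 1 library per group there was no test and no p-value. Shares use cells thinned to 2000 UMIs, which left out 88 labelled-knockout and 16 control cells of the type H gate. Named were all members, up to 4 genes per pathway list and comparison at least 1.5-fold different with 20 UMIs and an interval that leaves out 1, Klf2, Cd69, Cxcl12 and Ccl2, and the 5 genes most like each member with at least 100 UMIs. The scripts were tested on simulated data.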

Additional observations from a re-analysis of the deposited data

Results flagged for a closer look

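Ccr2 differed in direction between neighbouring clusters of the sinusoidal gate, with a ratio of labelled knockout over control of 2.19 in unnamed cluster 9 and 0.471 in the early granulocyte precursor-like cluster 6. Cluster 9 held 20 control cells and 20 control Ccr2 UMIs. Ccr9 differed in direction between cell types of the type H gate, with a ratio of 1.54 in plasmacytoid dendritic cell-like cluster 12 and 0.236 in plasma cell-like cluster 5. In the plasma cell-like cells no cell held more than 3 Ccr9 UMIs, while in the plasmacytoid dendritic cell-like cells of each library the richest cell held 9. In both cases the counting intervals lay on opposite sides of 1, and the difference between the cell types was not tested, since each group is 1 library.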

How the results depend on the processing

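No paired analysis was possible because each group is 1 library and the titles carry no replicate numbers, and for the same reason no replicate could be left out. The log2 ratios of Spns2 and Cxcr4 in progenitor-like cells stayed positive over the 10 settings run, the reported one included, from 0.69 to 1.14 and from 0.88 to 1.70. The highest of both, 1.14 and 1.70, came from cells with Xist only, where 1 member was counted instead of 2. In granulocyte precursor-like cells the log2 ratio of Ccr2 was 0.42 at Leiden resolution 2, which reverses it, -2.80 in cells with Xist only and -0.49 in cells with Y-linked UMIs only, and -0.61, with an interval that held 1, without called doublets, that of Cx3cr1 was -0.67 at resolution 2, and that of Ccr1 was 1.10 in cells with Xist only, which reverses it on 1 UMI, and -0.30 in the largest cluster alone. There 1 member was counted in cells with Xist only, 0 in cells with Y-linked UMIs only and 5 with no minimum of UMIs. In monocyte-like cells Ccr2 was -1.36 without a cell filter, -1.25 under a strict one, -1.35 with the members in the clustering, -1.06 with Xist only and -0.80 with Y-linked UMIs only. Under the first 3 of these settings Cxcr4 was 0.34, 0.42 and 0.32, short of 1.5-fold, and Ccr1 was -1.28, -1.14 and -1.28, past it, so the members counted stayed at 3 but were not the same ones. The largest cluster alone, an alternative chosen after seeing the data, gave 0.027 for Ccr2, which reverses it, 0.011 for Cxcr4 and -0.43 for Cx3cr1, with 0 members counted. With Xist only Cxcr4 was 1.34 and Cx3cr1 -3.38, and with no minimum 5 members were counted. Scaling by median ratios moved the median of all genes by at most 0.03 on the log2 scale. The cause of these shifts was not tested. Low UMI counts limit what can be read of Cxcr2 in every class, and of Cxcr4 in progenitor-like cells with Xist.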

Other observations

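Classes with fewer than 20 cells in a library were kept out of the comparisons, and some of them were rich in single receptors. The 18 T and NK-like cells of the sinusoidal control, all in a cluster led by Gzma and killer-cell receptor genes, had 564 CPM (401 to 770) of Ccr2, with the transcript in 14 of 18 cells. The 14 plasmacytoid dendritic cell-like cells of the same library had 614 CPM (443 to 831) of Ccr9, in 13 of 14 cells. Its 16 basophil and mast cell-like cells had 174 CPM (99.6 to 283) of Ccr1 and 109 CPM (52.2 to 200.3) of Cxcr4. In the type H labelled knockout the 12 monocyte-like cells had 954 CPM (742 to 1207) of Ccr2, in 8 of 12 cells, and 124 CPM (56.9 to 236) of Cx3cr1.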
